A study of Homo sapiens with 4 samples.

Results

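The peaks described here were all 307 calls on chromosome 22 in the 2 deposited peak lists of the series, out of 19536 calls in all. They were chosen by chromosome alone. The library labelled HA gave 190 of its 12662 peaks on this chromosome and the library labelled WT gave 117 of its 6874. ChIP-seq with an antibody against the HA tag was carried out on K562 cells, an established human line from chronic myeloid leukemia, which overexpressed either HA-PHF6 or the HA tag, and were otherwise untreated. Each ChIP library was sequenced beside its own input, with 1 library per condition, so there was no spread between replicates and no test between conditions. The titles name the libraries only as HA and WT and do not settle which one held HA-PHF6, so both are named by their titles.

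PHF6 is a nuclear protein with zinc-binding PHD-like domains that associates with chromatin and is lost in part of T-cell leukemias. BCR, on the long arm of chromosome 22, encodes a regulator of small GTPases. In chronic myeloid leukemia a translocation breaks BCR and joins its first part to ABL1 of chromosome 9, which encodes a tyrosine kinase. The joined gene keeps the part of chromosome 22 between the centromere and the break. K562 cells are known to carry many copies of the fusion together with neighbouring sequence, and an input library reads DNA copies along with other properties of the chromatin.

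The input enters each peak through its background, the number of tags that the input predicts at the summit. MACS, the peak caller, takes the highest of several input counts (around the summit, in 1 kb and in 10 kb) and never goes under the genome-wide level, which came to 1.05 tags for HA and to 1.68 tags for WT. Backgrounds are given below as multiples of that level, so that 1.0 means an input at or under the genome-wide level, and a background of at least 1.5 times the level is called raised. In 10 kb the genome-wide level corresponds to 74.6 input tags (HA) and 79.3 input tags (WT). The background is read only where a peak was called, and it is a maximum over windows, so it is not a measure of copy number.

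BCR lies at chr22:23180509-23318037 (GRCh38.p14, RefSeq). The chromosome was read in 1 Mb bins, and bin 24 (23000001 to 24000000) holds the gene. The 7 bins before it (17 to 23, ending at 23000000) are called the proximal part. The 26.8 Mb after it, up to the end of the last annotated gene at 50799637, are called the distal part. Bins 1 to 16 hold the short arm and the centromere. The proximal part held 51 peaks labelled HA and 55 labelled WT, the BCR bin 6 and 10, the distal part 121 and 21, and the short arm and centromere 12 and 31.

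Promoters are shown first, because peaks of the library labelled HA in the proximal part lay over them more often than its other peaks. The lines below give the 250 bases before the outermost annotated start of 5 genes of the proximal part, from RefSeq (GRCh38.p14), 5′ to 3′ on the strand of the gene, and the bases under the peak are in capitals. The first 4 genes had a peak labelled HA and FAM246C had the only promoter peak labelled WT of the proximal part. CDC45 loads the replicative helicase (plus strand, chr22:19479216-19479465), HIC2 is a zinc finger transcription factor (plus strand, chr22:21417121-21417370), LZTR1 is an adaptor of a ubiquitin ligase (plus strand, chr22:20982047-20982296), TOP3B is a topoisomerase (minus strand, chr22:21982788-21983037), and FAM246C was on the plus strand (chr22:19029274-19029523).
CDC45: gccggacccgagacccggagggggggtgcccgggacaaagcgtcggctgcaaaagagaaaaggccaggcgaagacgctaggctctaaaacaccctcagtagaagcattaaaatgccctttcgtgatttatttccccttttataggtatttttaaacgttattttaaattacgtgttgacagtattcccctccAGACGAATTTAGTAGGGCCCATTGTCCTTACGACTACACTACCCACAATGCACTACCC
HIC2: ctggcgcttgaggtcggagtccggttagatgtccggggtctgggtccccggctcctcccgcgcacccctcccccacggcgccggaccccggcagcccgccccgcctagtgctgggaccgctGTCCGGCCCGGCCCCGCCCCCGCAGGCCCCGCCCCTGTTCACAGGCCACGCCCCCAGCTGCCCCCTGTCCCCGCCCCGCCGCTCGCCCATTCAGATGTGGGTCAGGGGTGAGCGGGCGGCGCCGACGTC
LZTR1: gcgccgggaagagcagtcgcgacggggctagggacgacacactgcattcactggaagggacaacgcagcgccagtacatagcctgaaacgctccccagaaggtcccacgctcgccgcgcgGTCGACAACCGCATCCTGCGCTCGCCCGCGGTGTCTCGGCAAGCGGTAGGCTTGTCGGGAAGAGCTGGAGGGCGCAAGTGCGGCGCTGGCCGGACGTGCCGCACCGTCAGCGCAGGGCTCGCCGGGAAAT
TOP3B: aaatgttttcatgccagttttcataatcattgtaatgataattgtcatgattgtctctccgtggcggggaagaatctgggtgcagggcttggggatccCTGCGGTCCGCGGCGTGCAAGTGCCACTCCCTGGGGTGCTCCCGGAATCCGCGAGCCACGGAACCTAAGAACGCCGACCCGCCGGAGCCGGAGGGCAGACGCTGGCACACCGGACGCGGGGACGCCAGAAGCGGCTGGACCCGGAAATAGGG
FAM246C: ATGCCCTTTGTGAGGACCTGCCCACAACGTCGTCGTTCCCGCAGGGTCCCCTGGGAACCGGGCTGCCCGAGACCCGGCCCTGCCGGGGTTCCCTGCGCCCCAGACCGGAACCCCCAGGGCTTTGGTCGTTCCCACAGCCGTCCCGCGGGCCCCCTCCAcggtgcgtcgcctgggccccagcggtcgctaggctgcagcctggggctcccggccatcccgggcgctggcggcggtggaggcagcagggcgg

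The background at the peaks changed around the end of BCR. In the library labelled HA, a peak at the summit 23195612, in the first part of the gene, had 19 tags over a background of 8.24 times the genome-wide level, set by 615 input tags in 10 kb (95% exact Poisson interval 7.60 to 8.92 times). A second peak at 23287712, 107 kb after the start of the gene, had 17 tags over 5.79 times the level (432 input tags, 5.26 to 6.36 times). The next peak toward the end of the chromosome, at 23401372 and 83.3 kb after the end of the gene, had 5 tags over 1.0 times the level. The backgrounds of these neighbouring peaks, 114 kb apart, thus differed by a factor of 5.79.

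The library labelled WT had 4 peaks in BCR and showed the same step. Their backgrounds were 6.47 times the genome-wide level at 23262207, 6.76 times at 23276574, 7.36 times at 23280015 and 6.06 times at 23288820. The value at 23262207 rested on 12 input tags at the summit (3.34 to 11.3 times), that at 23276574 on 536 input tags in 10 kb (6.20 to 7.36 times). The peak at 23288820 lay 29.2 kb before the end of the gene. The next peak of this list, at 24128402 in CABIN1, which encodes a calcineurin-binding protein, had a background of 1.08 times the level, but it was 840 kb further on. From both lists together, the last raised background was at 23288820 and the first at the genome-wide level at 23401372, so the change lay within a stretch of 113 kb that holds the last part of BCR and sequence after it. The 2 inputs are separate libraries. The intervals here and below cover counting error only. Where the summit count set a background, the 1 kb and 10 kb inputs were at or under it, which the interval leaves out.

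**Figure D1:**
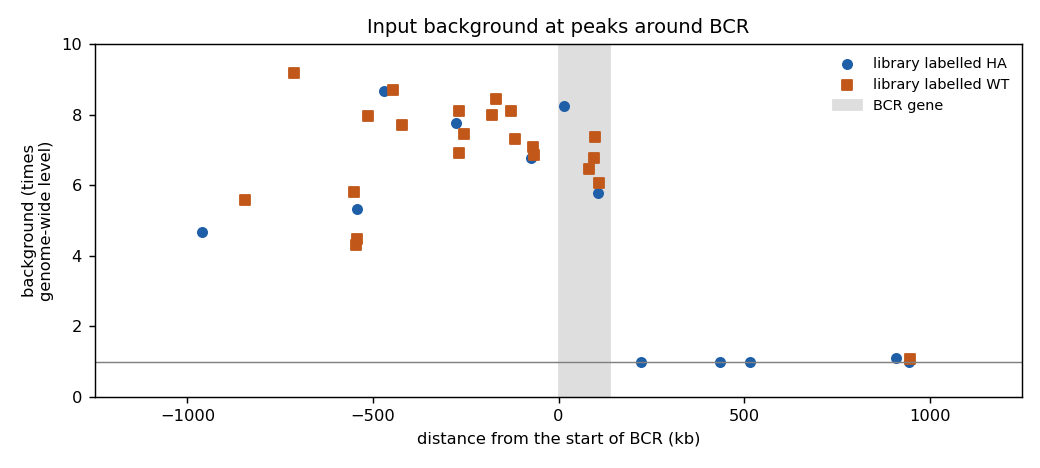
Background at each peak, in multiples of the genome-wide level (vertical axis), against its distance from the start of BCR in kb (horizontal axis), for the library labelled HA (circles) and the library labelled WT (squares), with the gene in grey. The backgrounds that fall within the axis lie between 4.31 and 9.17 times the level before and within BCR, and between 1.0 and 1.09 times after it. The peak labelled HA at the promoter of TOP3B (summit 21982898, 13.3 times) lies above the axis, at the left edge.

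The other genes of the BCR bin followed their side of the step. RSPH14, which encodes a protein of the radial spoke of cilia, overlaps GNAZ, which encodes a G protein alpha subunit, and both lie before BCR. They shared 1 peak labelled HA at 23106978, with a background of 6.77 times the level (505 input tags in 10 kb, 6.19 to 7.38 times), and 2 peaks labelled WT at 7.08 and 6.85 times. RSPH14 held another peak labelled WT at 7.32 times, and 3 more peaks labelled WT, in no annotated gene, stood at 7.97 to 8.45 times. After BCR, the peaks labelled HA at ZDHHC8BP, DRICH1 and the overlapping GUSBP11 and RGL4 all stood at 1.0 times the level with 5 to 6 tags. The library labelled WT had no peak in this bin after BCR. LOC107985554 overlaps BCR and shares its peaks at 23287712 and 23288820.

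Over the whole arm, the proximal part differed from the distal part in both libraries. In the library labelled HA, 42 of the 51 proximal peaks had a raised background (82.4%, 95% Wilson interval 69.7% to 90.4%), against 8 of the 121 distal peaks (6.61%, 3.39% to 12.5%). Of all peaks in that list 14.4% had one. In the library labelled WT, 45 of 55 proximal peaks were raised (81.8%, 69.7% to 89.8%), against 0 of 21 distal peaks (Wilson upper limit 15.5%) and 22.2% of all peaks in that list. The distal share labelled HA was therefore under that of its whole list, and both proximal shares were far above it. The median background was 4.39 tags in the proximal and 1.05 tags in the distal part labelled HA (quartiles 2.21 to 7.99 and 1.05 to 1.39), a ratio of 4.19. It was 6.21 and 1.68 tags in the library labelled WT (quartiles 3.62 to 7.58 and 1.68 to 1.81), a ratio of 3.70. Among peaks with a fold enrichment of at least 3, of which the proximal part held 12 (HA) and 8 (WT), these ratios came to 1.53 and 1.18.

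**Figure D2:**
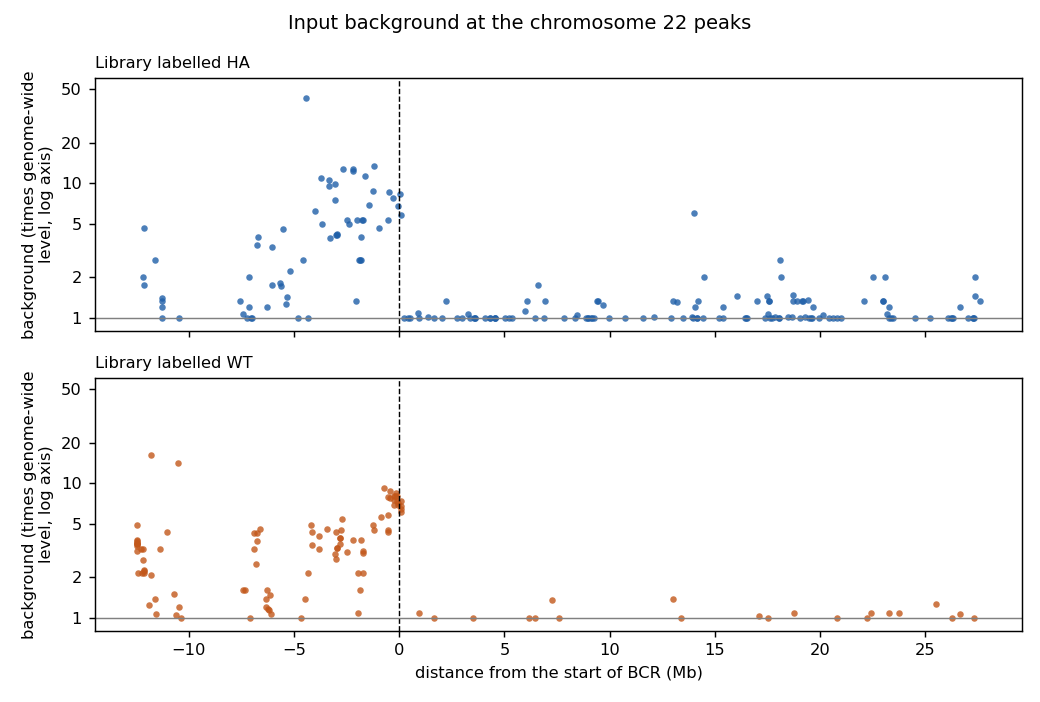
Background at every chromosome 22 peak in multiples of the genome-wide level (vertical log axis) against the distance from the start of BCR in Mb (horizontal axis), the library labelled HA above and the library labelled WT below; the grey line is the genome-wide level and the dashed line the start of BCR. After BCR the highest values are 6.0 times (HA) and 1.39 times (WT), while most peaks in the 4 Mb before it lie between 2 and 13.3 times.

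Within the proximal part the raised backgrounds were not spread evenly. In its first 3 bins (17 to 19) the median was 1.74 times the level over 19 peaks labelled HA and 1.55 times over 18 peaks labelled WT. In the next 4 bins (19000001 to 23000000) it was 5.35 times over 32 peaks (HA) and 4.04 times over 37 peaks (WT), and 31 and 36 of these peaks were raised. Around the start of this stretch, peaks of both lists overlapped at the pseudogene POM121L15P (summits 18850539 and 18850619), with 1.0 times the level labelled HA and 2.16 times labelled WT. The next peaks stood at 6.20 times labelled HA (19170559, no annotated gene) and at 4.85 times labelled WT (18990319, in the noncoding gene DGCR5).

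In the library labelled WT the backgrounds were higher still next to BCR. From DGCR5 to LZTR1 its 18 peaks had a median of 3.85 times the level (range 2.75 to 5.39), in bin 23 (22000001 to 23000000) its 11 peaks had a median of 7.44 times (4.31 to 9.17), and in the BCR bin its 10 peaks had a median of 7.20 times (6.06 to 8.45). Over all peaks labelled HA the order differed. The medians were 6.85 times over 16 peaks in the stretch from DGCR5 to LZTR1 and the neighbouring THAP7, 6.55 times over 4 peaks in bin 23 and 6.77 times over the 3 peaks of the BCR bin up to the end of the gene. Of those 16 peaks 7 lay over a promoter, with a median of 10.9 times, and the 9 others had a median of 4.96 times, while no peak of bin 23 or the BCR bin lay over one. Without promoter peaks the HA medians were thus also lower in this stretch than next to BCR, but the ranges overlapped. They were 3.91 to 9.92 times here, 4.67 to 8.67 times in bin 23 and 5.79 to 8.24 times from there to the end of BCR. Peaks of this list between 19000001 and 23000000 that lay over no promoter had a median of 5.32 times the level, and the 9 that lay over one had 10.9 times, so the medians of the 2 lists rest on different kinds of places.

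Lower values within the stretch lay in bin 22, at genes that exist in several near-identical copies on this arm. Between 21144166 and 21369192 the 5 peaks labelled HA had a median of 2.67 times the level (1.33 to 5.33) and the 3 peaks labelled WT a median of 1.62 times (1.09 to 2.14). They lay at FAM230B and FAM230H (HA), at GGT2P and at POM121L8P with BCRP6 (WT) or between genes, and BCRP6 is a pseudogene named after BCR. Pseudogenes with names of these families were not all low. POM121L1P in bin 23 stood at 5.32 times (HA) and at 4.31 and 4.48 times (WT), the first of these WT peaks also in BCRP4. POM121L15P, before the stretch, had 1.0 times (HA) and 2.16 times (WT). All 5 HA values rested on 2 to 8 input tags at the summit. The intervals of these summit counts are wide, 0.73 to 6.83 times at FAM230H and 2.30 to 10.5 times at FAM230B. As the highest count sets the background, the 1 kb and 10 kb inputs at these 5 peaks were at or under the values given. Reads from near-identical copies are hard to place uniquely, and their part in the lower values was not tested. Further on, the 7 peaks labelled HA at RIMBP3B, HIC2, UBE2L3, PPM1F and the promoter of TOP3B among others stood at 4.0 to 13.3 times, and the 6 labelled WT, at HIC2, PI4KAP2 and TOP3B or in no gene, at 2.16 to 4.85 times. A shorter raised run lay nearer the centromere, from 16260102 to 16550143, with 6 peaks labelled WT at 2.52 to 4.54 times and 2 labelled HA at 3.48 and 4.0 times. It was followed by 13 peaks labelled HA and 10 labelled WT up to 18850619, with medians of 1.74 and 1.29 times.

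The immunoglobulin lambda locus (IGL), whose segments are joined in B cells to encode an antibody light chain, fills most of bin 23. It held 4 peaks labelled HA with a background of 4.67 to 8.67 times the level and 10 labelled WT with 4.31 to 9.17 times. The best counted values there were 5.32 times labelled HA (summit 22638496, 397 input tags in 10 kb, 4.81 to 5.87 times) and 8.69 times labelled WT (22733608, 689 input tags, 8.06 to 9.37 times). The summit 22638496 and that of the lowest WT value, 4.31 times at 22634938, also lay in the pseudogene POM121L1P. A single summit count is far less precise. At 22219498 the HA background of 4.67 times rested on 7 input tags, with an interval of 1.88 to 9.61 times for that count. The 1 kb and 10 kb inputs there were at or under 4.67 times.

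Seen against the rest of the genome, the 5 bins from 19000001 to 24000000 were among the highest. Of the 2019 bins with at least 3 peaks labelled HA, 33 had a median background of at least 3 times the level, and these 5 were among them, at ranks 12 to 27. Of the 965 such bins labelled WT, 28 passed 3 times the level, these 5 again among them, at ranks 13 to 27. Over the 16 bins of the long arm with at least 2 peaks in each list, the 2 medians had a Pearson r of 0.74 and a Spearman rho of 0.76. This is a description over bins of 1 chromosome in 2 libraries of 1 cell line. On chromosome 9, the partner in the fusion, the 2 peaks labelled HA within ABL1 had backgrounds of 9.33 and 10.0 times the level. In the 1 Mb after ABL1 4 of 5 peaks of each list were raised, and in the 1 Mb before it 1 of 5 labelled HA and 0 of 2 labelled WT were.

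Peaks were also denser in the proximal part, much more so in the library labelled WT. That library had 7.86 peaks per Mb in the proximal part (95% exact Poisson interval 5.92 to 10.2) and 0.784 per Mb in the distal part (0.485 to 1.20), a ratio of 10.0 (exact interval 6.0 to 17.5), against 2.22 per Mb over its whole list. The library labelled HA had 7.29 per Mb (5.42 to 9.58) and 4.51 per Mb (3.75 to 5.39), a ratio of 1.61 (1.14 to 2.26), against 4.08 per Mb over its whole list. The distal part labelled WT thus lay at 0.353 of that list's own average and the distal part labelled HA at 1.11. With only peaks of a −log10 q above 0, which left 29 proximal peaks labelled WT and 26 labelled HA, the ratios were 22.2 (WT) and 2.55 (HA). With a fold of at least 3 they were 6.13 (1.77 to 23.8) for WT and 1.28 (0.605 to 2.51) for HA. The HA ratio was also 1.30 (0.883 to 1.87) without promoter peaks and 1.36 (0.938 to 1.94) without backgrounds over 10 times the level, so these 3 HA intervals include 1.

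The enrichment of the peaks over their background ran the other way. The median fold enrichment, the ratio of the pileup to the background with 1 added to both, was 2.55 in the proximal and 2.93 in the distal part labelled HA, and 2.42 and 2.85 labelled WT. In the BCR bin labelled WT it was 2.02 (1.71 to 2.33). The pileups themselves were higher in the proximal part, with medians of 12 and 5 tags labelled HA and 16 and 7 tags labelled WT. The cutoff of the call, a Poisson p of 0.005, admits smaller folds where the background is high. At the genome-wide level the smallest fold that passes is 2.44 labelled HA (4 tags) and 2.61 labelled WT (6 tags). At the median background of bin 23 it is 1.91 (14 tags) and 1.70 (22 tags). In the BCR bin, 10 of 10 peaks labelled WT had a fold under 2.61, and folds that small do not pass at the genome-wide level. Their pileups of 22 to 29 tags were above the 6 tags needed there. Over the whole list labelled WT the lower quartile of the fold was 2.50. How much of the higher density comes from this property of the cutoff was not tested.

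**Figure D3:**
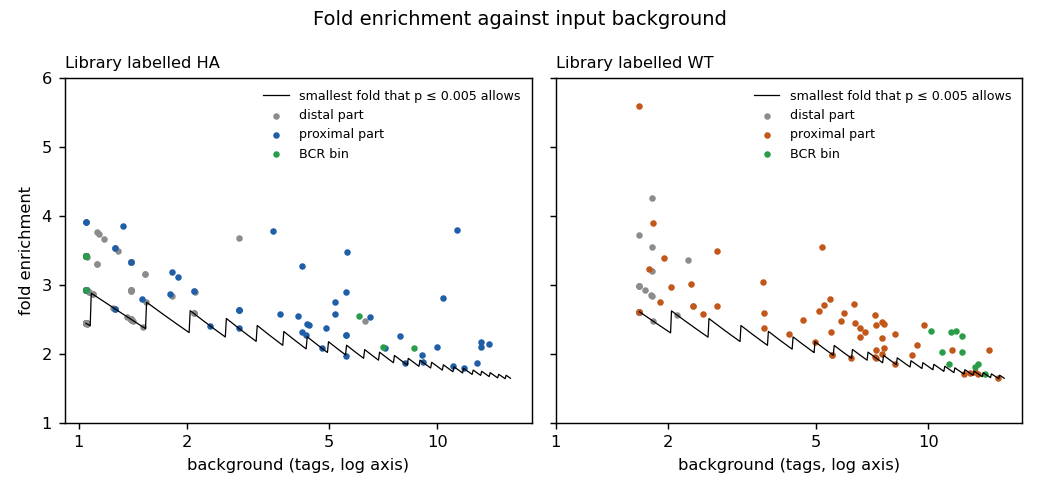
Fold enrichment (vertical axis) against background in tags (horizontal log axis) for the peaks of chromosome 22 with up to 16 tags of background, the library labelled HA on the left and WT on the right, by part of the chromosome. The black line is the smallest fold that a Poisson p of 0.005 allows, which falls from 2.44 (HA) and 2.61 (WT) at the genome-wide level to 1.91 and 1.70 at the median background of bin 23, and most peaks lie close to it.

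Over 50% of the calls had a q-value of 1, 118 of the 190 labelled HA (62.1%) and 60 of the 117 labelled WT (51.3%), near the 64.0% and 58.0% of the whole lists. The lists almost never met. The peaks at POM121L15P (from 18850443 to 18850849 labelled HA and from 18850490 to 18850856 labelled WT) were the only ones to overlap by at least 1 bp, which is 0.526% of the peaks labelled HA and 0.855% of those labelled WT on this chromosome, against 1.67% and 3.08% of the whole lists.

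The peak with the smallest q-value on the chromosome was labelled HA and lay at CDC45, from 19479408 to 19479705, with 46 tags where the input predicted 11.4. Its enrichment was 3.8-fold and its −log10 q was 9.52. It covers the last 58 of the bases printed above for this gene and reaches into the gene. Among the other proximal peaks labelled HA at genes, HIC2 had 22 tags, a fold of 3.48 and a −log10 q of 2.94, RANBP1, a partner of the Ran GTPase in nuclear transport, had 31 tags, 2.81 and 2.71, and HDHD5 had 16 tags, 3.79 and 2.25. A peak in no annotated gene at 18730589 had more tags than any of these, 96, but over a background of 44.6 tags, 42.7 times the genome-wide level and the highest of the chromosome, and its fold was 2.13 with a −log10 q of 6.19.

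The strongest proximal peaks labelled WT lay elsewhere. The highest fold of the chromosome, 5.60 (14 tags, −log10 q 4.49), was at 18521309 in no annotated gene, over a background at the genome-wide level. PI4KA, which encodes a lipid kinase of the plasma membrane, had 21 tags, a fold of 3.55 and a −log10 q of 2.71. The pseudogenes GGT2P and POM121L8P with BCRP6 had folds of 3.90 and 3.50 on 10 and 12 tags, and IGL had a fold of 2.42 on 25 tags at 22629219. At none of these places did the library labelled HA have an overlapping peak.

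Proximal peaks labelled HA lay over promoters more often than distal ones. Peaks labelled HA with high backgrounds on other chromosomes also lay over them more often than the rest (15.0% against 2.16%, given below). A promoter window of 300 bases (250 before and 50 after an annotated start) was overlapped by 11 of these 51 peaks (21.6%, 95% Wilson interval 12.5% to 34.6%), against 3 of 121 in the distal part (2.48%, 0.847% to 7.04%) and 2.84% of all peaks in that list. In the library labelled WT it was 1 of 55 in the proximal part (1.82%, 0.322% to 9.61%), 1 of 21 in the distal part and 0.684% of all peaks. The windows themselves were about as dense in both parts, 19.6 per Mb in the proximal and 18.6 per Mb in the distal part.

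The 11 peaks lay at HDHD5 and HDHD5-AS1, RIMBP3, CDC45, GNB1L with RTL10 and LOC124905080 (2 peaks), LOC105372862, MED15, LZTR1, THAP7-AS1, HIC2 and TOP3B. MED15 is a subunit of the Mediator complex that links transcription factors to RNA polymerase II. The pair at GNB1L are summits of 1 region. The median background of the 11 was 10.6 times the level (2.67 to 13.3), against 4.0 times for the 40 other proximal peaks labelled HA. At TOP3B 31 tags stood over 13.3 times the level, at MED15 30 tags and at LZTR1 29 tags over 12.7 times each, and the folds were 2.14, 2.18 and 2.11. These inputs rested on 20 tags at TOP3B and 19 tags at each of the others. The folds of the 11 ranged from 1.82 to 3.8, with a median of 2.18.

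On the other chromosomes the same tie between background and promoter was seen in the library labelled HA. There, 89 of 593 peaks with a background of at least 3 times the level lay over a promoter window (15.0%, 12.4% to 18.1%), against 256 of 11879 with a lower background (2.16%, 1.91% to 2.43%). Between 19000001 and 23000000 on chromosome 22 it was 9 of 28 (32.1%, 17.9% to 50.7%). The library labelled WT did not show this tie. On the other chromosomes it had 1 of 544 (0.184%, 0.0325% to 1.03%), against 44 of 6213 with a lower background (0.708%, 0.528% to 0.949%). In this stretch it had 1 of 31. The part of the tie seen in the library labelled HA in its higher backgrounds near BCR was not tested. Without the promoter peaks its median between 19000001 and 23000000 was the 5.32 times given above.

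The windows under these peaks were rich in G and C. The 14 windows under proximal peaks labelled HA had a median of 67.8% G and C and 31.5 CG pairs, against 63.0% and 18 over the 665 windows of chromosome 22. Some of the 14 overlap each other, as at CDC45. The 3 windows under distal peaks labelled HA had 75.7% and 35, so this was not particular to the proximal part. Of the sequences printed above, that of HIC2 had 78.0% G and C and 29 CG pairs in 250 bases, LZTR1 68.4% and 33, TOP3B 60.8% and 22, and CDC45 48.4% and 13. FAM246C, from the list labelled WT, had 75.2% and 25. CG was counted on the printed strand, and reads the same on the other. At least 20 CG pairs were found in 71.4% of the 14 windows, in 100% of the 3 distal ones and in 48.7% of all windows.

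The genes of 2 lists, written with earlier results of these data known, are given next. Their backgrounds are those of the peaks described above, read by gene, and are not further support. Of 22 genes before or at BCR, 7 held a summit labelled HA and 8 one labelled WT, 12 in either library. Over all 398 annotated genes there, which are shorter (median 2.06 kb against 34.9 kb in the list), 28 (7.04%) and 27 (6.78%) did, so the list counts are not read as more than usual. The genes nearer the centromere had lower backgrounds, 1.06 times the level at IL17RA (WT), a cytokine receptor, and 1.81 times at CECR2 (HA), a bromodomain protein. From DGCR2 on they were high, with 3.48 times at DGCR2 (WT), medians of 3.64 times at the histone chaperone gene HIRA (WT, 2 peaks) and 7.91 times at CDC45 (HA, 2 peaks), 3.79 times at LZTR1 (WT), 8.71 times at the phosphatase gene PPM1F (HA) and 4.67 times at TOP3B (WT). RSPH14, GNAZ and BCR held peaks of both lists. Among the 10 that held none were XKR3, BID, USP18, TBX1, DGCR8, CRKL, PRAME, IGLL5 and RAB36.

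Of 26 genes after BCR, 9 held a summit labelled HA and 2 one labelled WT, and 17 held none. Over all 813 annotated genes after BCR (median 7.62 kb against 44.0 kb in the list) 82 (10.1%) and 16 (1.97%) did. The medians per gene lay between 1.0 and 1.46 times the level in both lists. NF2, the gene of the tumour suppressor merlin, had 1 peak in each list, both at 1.0 times, and TNRC6B, which acts in gene silencing by microRNAs, had 1 at 1.33 times (HA) and 1 at 1.03 times (WT). PPARA, a nuclear receptor of lipid metabolism, held 3 peaks labelled HA with a median of 1.34 times. MYH9, RAC2, MRTFA, PDGFB, XRCC6 and BRD1 held 1 peak labelled HA each. The first members of the list after BCR, IGLL1, SMARCB1, MIF and DDT, held none.

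Most backgrounds of the distal arm were at or near the floor of the measure, under which a lower input cannot show. Among peaks labelled HA, 69 of 121 backgrounds were at the genome-wide level (57.0%), near the 52.0% of that whole list. Among those labelled WT 11 of 21 were (52.4%), against 22.7% of that whole list, with 2.33 tags as the highest distal background. The 8 raised ones labelled HA lay at UQCR10, C1QTNF6, RANGAP1, ZC3H7B, ATXN10, PPARA and SCO2 and in no gene at 37681971. Only C1QTNF6 exceeded 2.68 times the level, with 17 tags over 6.0 times, a value that rested on 9 input tags at the summit. The strongest distal peaks were at RANGAP1 labelled HA, the activator of the Ran GTPase (13 tags, fold 3.68, −log10 q 1.39), and at FBLN1 labelled WT, an extracellular matrix gene (11 tags, fold 4.27, −log10 q 1.70). HPS4, CABIN1 and KREMEN1 followed among peaks labelled HA with folds of 3.77, 3.75 and 3.67 on 7 tags each, and the peak labelled HA at 48371730 in no gene had 3.91. NF2 (3.73 on 9 tags) followed among peaks labelled WT, then a peak in no gene at 41915315 (3.56 on 9 tags), the window of MTFP1 (3.37 on 10 tags) and CABIN1 (3.20 on 8 tags).

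The short arm and centromere also had raised backgrounds, mainly in the library labelled WT. Of its 31 peaks there 25 were raised (80.6%), with a median of 2.70 times the level, and of the 12 labelled HA 4 were (33.3%), with a median of 1.33 times. Between 10713686 and 10956727 there were 12 peaks labelled WT at 2.14 to 4.85 times and none labelled HA. The 2 highest of this list on the chromosome were at 11369793 (66 tags over 16 times the level) and at the pseudogene DUX4L44 (61 tags over 14 times). The highest fold labelled HA on the chromosome, 5.17 (15 tags, −log10 q 4.32), was at 11017328 in no annotated gene, over 2.0 times the level. These stretches consist largely of repeats shared between chromosomes, and their raised input was not separated from copy number here.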

How the data were processed

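DNA from 4 K562 libraries (2 ChIP, 2 inputs) was sequenced by the authors, who deposited 1 peak list for each of the 2 ChIP libraries. The submitters' processing notes name BWA 0.7.12 and MACS2 2.1.0. Per the file headers, MACS 2.1.0.20150420 compared each ChIP library to the matching input, on reads whose file names mark them as unique and de-duplicated, using a p-value cutoff of 0.005, an extension of 201 bp (HA) or 234 bp (WT) and a genome size of 3099750718. After filtering, 16132466 (HA) and 22257947 (WT) ChIP tags and 23134375 and 24567954 input tags remained. The signal the authors deposited is the pileup of extended tags at the summit. The deposited fold enrichment is a ratio, pileup plus 1 over background plus 1. The authors deposited p-values and q-values as −log10. The headers say that q-values are not calculated, but the column holds them. The larger library of each pair was scaled to the smaller. No build is named in the files, whose chromosome and contig names are those of GRCh38.

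The background was computed as (pileup + 1) / fold enrichment − 1. For 100% of the peaks of both lists it equalled the genome-wide level or a whole number of scaled input tags in one of MACS's windows, which gave the input tags behind it. A count in 10 kb that is a multiple of 10 reads as 1 kb. The Poisson p recomputed from it was within 0.01 of the deposited −log10 p for 100% of the peaks. Peaks were placed by their summit. Genes and promoter windows are those of RefSeq (GRCh38.p14). The gene table gives no exons, so exonic and intronic positions were not analysed here. Shares have 95% Wilson intervals, rates exact Poisson intervals and ratios of rates exact (Clopper-Pearson) intervals. On simulated data the script recovered the planted windows for backgrounds above the genome-wide level. A 10 kb count that is a multiple of 10 and was read as 1 kb was scored as recovered. Tools were matplotlib 3.10.9, scipy 1.17.1, numpy 2.4.6, pandas 2.3.3 and Python 3.11.15.

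The genes named were those at peaks of the BCR bin, at the 5 peaks with the smallest q-value per list in the proximal and in the distal part, and the members of 2 gene lists. Some members of the lists are not reported here by name. Other genes were named after their values were seen. The members and lists were chosen with earlier results of these data known. The stretches within the proximal part and the promoter comparison were chosen after the values were seen.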

Additional observations from a re-analysis of the deposited data

How the results depend on the processing

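No paired analysis was possible because there was only 1 ChIP library per condition. Of 78 values of 8 results under other settings, 66 stayed within the interval of the value reported (for medians, a binomial interval over the ranked proximal backgrounds) and 12 moved. Among the ratios, 0 crossed to the other side of 1, and a change of direction was not scored for the shares. With a fold enrichment of at least 3, the raised share was 50% (HA) and 37.5% (WT) in the proximal part and 2.78% (HA) in the distal part, and the median background ratio was 1.53 (HA) and 1.18 (WT). The fold has the background in its divisor, so this cut also selects on the background. How much of the change comes from that was not tested. With a −log10 q above 0 the ratio of peaks per Mb was 2.55 (HA) and 22.2 (WT). Counting backgrounds from 2 times the level gave a distal share of 2.48% (HA). With the cut at the start of BCR the distal share labelled WT was 16%, since the peaks within BCR then count as distal. With the proximal part from bin 20, chosen after seeing the data, the raised share was 96.9% (HA) and 97.3% (WT) and the median ratio 5.35 (HA). The cut at the end of BCR, the later start by 1 Mb, merging within 500 bp, leaving out backgrounds over 10 times the level, the mean, and leaving out promoter peaks (also chosen after seeing the data) moved none of these results out of the interval reported. The HA ratio of peaks per Mb still fell to 1.36 (0.938 to 1.94) without backgrounds over 10 times the level. Without promoter peaks it fell to 1.30 (0.883 to 1.87), and both intervals include 1. Depth limits single backgrounds most where a few input tags set them.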
